A study of Mus musculus with 36 samples.

Results

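The Id genes Id1, Id2, Id3 and Id4, the inhibitory Smad genes Smad6 and Smad7, and Skil were followed in newly transcribed RNA of NIH-3T3 cells, a mouse embryo fibroblast line. They were taken by symbol, as every probe set that the array annotation gives to 1 of these 7 BMP and TGF-beta target genes, a rule that uses symbols alone, although the genes were picked with earlier results of these data known. They have 13 probe sets among the 45037 that are not array controls, and all 7 genes were among the 9549 tested. Each gene was read from its probe set with the highest mean, and its other probe sets are given beside it. The study applied fresh warmed medium to all cells at time 0, carrying IFN alpha (100 U/ml), IFN gamma (100 U/ml) or, in mock cells, no interferon. RNA made in a window was tagged with 4-thiouridine (4sU), a uridine analog that cells build into new transcripts, and isolated. The windows were 0-30, 30-60 and 150-180 min, with 500 µM 4sU, and 0-60 min, with 200 µM. Each of the 12 groups of treatment and window had 3 arrays, and the cells of every group were the same line, grown in DMEM with NCS and split the day before. The labels number the arrays of a group but do not say that they came from separate cultures, so the p-values measure the spread between arrays, which may be technical.

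BMP and TGF-beta ligands bind pairs of receptor kinases, which phosphorylate receptor Smads; these join Smad4, enter the nucleus and act on target genes. The 4 Id proteins (inhibitors of DNA binding) are helix-loop-helix proteins with no DNA-binding region, so they hold E proteins and their partners away from DNA, and they are classic direct targets of BMP Smads in fibroblasts and other cells. Smad6 and Smad7 are targets that feed back: Smad6 acts chiefly on BMP receptor signalling, Smad7 on TGF-beta and BMP receptors alike. Skil encodes SnoN, a nuclear repressor that binds Smads, is degraded when TGF-beta signals, and is itself transcribed in response. IFN gamma and IFN alpha are cytokines of antiviral and immune defence that bind separate cell-surface receptors.

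In GRCm38.p6, Id1 lies at chr2:152736251-152737410, Id2 at chr12:25093799-25096092, Id3 at chr4:136143822-136145392 and Id4 at chr13:48261116-48266028. Smad6 lies at chr9:63953076-64022085 and Skil at chr3:31095058-31122923. All 7 genes rose together in mock cells, and Id4 and Smad6 differed from mock in opposite directions with IFN gamma. No RefSeq promoter sequence was matched for Id1 or Skil, and Smad7 was left out of the search, so its motifs are not given. Promoter sequences are shown for the other 4 genes. Each is 280 bases on the gene's strand, 250 before an annotated start and 30 from it on, read 5′ to 3′. They are Id2 at chr12:25096063-25096342 (minus strand), Id3 at chr4:136143572-136143851 (plus), Id4 at chr13:48260866-48261145 (plus) and Smad6 at chr9:64022030-64022309 (minus). Capitals mark a match to GGCGCC, the GC-rich element bound by BMP Smads, or to GTCTAGAC, the palindromic Smad-binding element.
Id2: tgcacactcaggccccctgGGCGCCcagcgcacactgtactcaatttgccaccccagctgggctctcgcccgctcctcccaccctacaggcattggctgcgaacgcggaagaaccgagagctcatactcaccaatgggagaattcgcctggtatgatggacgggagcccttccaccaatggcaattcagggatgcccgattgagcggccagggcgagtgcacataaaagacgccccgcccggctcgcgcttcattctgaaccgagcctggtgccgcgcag
Id3: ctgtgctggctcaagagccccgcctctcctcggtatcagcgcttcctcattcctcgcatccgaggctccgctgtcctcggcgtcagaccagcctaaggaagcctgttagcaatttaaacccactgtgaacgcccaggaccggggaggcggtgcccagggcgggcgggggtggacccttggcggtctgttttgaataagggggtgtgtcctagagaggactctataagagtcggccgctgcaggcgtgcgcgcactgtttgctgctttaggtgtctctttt
Id4: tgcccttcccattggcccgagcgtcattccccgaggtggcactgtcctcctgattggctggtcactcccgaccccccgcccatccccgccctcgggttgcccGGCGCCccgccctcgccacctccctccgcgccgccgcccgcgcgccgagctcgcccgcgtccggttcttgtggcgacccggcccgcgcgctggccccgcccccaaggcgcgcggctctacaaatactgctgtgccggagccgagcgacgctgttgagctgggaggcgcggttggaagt
Smad6: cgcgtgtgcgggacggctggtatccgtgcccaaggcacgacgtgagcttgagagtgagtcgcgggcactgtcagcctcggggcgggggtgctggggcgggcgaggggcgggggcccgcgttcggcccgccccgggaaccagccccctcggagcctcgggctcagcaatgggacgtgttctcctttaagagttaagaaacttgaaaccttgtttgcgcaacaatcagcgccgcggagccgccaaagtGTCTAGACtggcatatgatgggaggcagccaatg
GGCGCC began 231 bases before the start of Id2 and 148 bases before that of Id4. GTCTAGAC began 4 bases before the start used for the Smad6 promoter and ran across it. That start lies inside the Smad6 span given above, so this match is within the annotated gene and not upstream of its outer end. Id3 had neither. Both strands were searched and no matches overlapped. Among 32851 RefSeq promoters cut to the same 280 bases, 10.9% held GGCGCC and 0.192% held GTCTAGAC, so the first is common and the Smad palindrome is rare. A match here describes letters and is not a measured binding site. The GC content was 62.9% for Id2, 60.7% for Id3, 74.3% for Id4 and 65.4% for Smad6.

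The values are log2 GCRMA values, and a difference of 1 is a 2-fold difference in signal. GCRMA values compare arrays for 1 probe set, so no gene's level is set against another's. Correlations between arrays of a group were between 0.91 and 0.995 over the tested genes. Array 1 of mock at 0-60 min stood apart, with r = 0.91 to each of its mates against 0.987 between them, and results that rest on mock in that window are given with and without it where it moves them. Irf1, a direct target of both pathways, was above mock in all windows, by 5.14, 4.73, 5.86 and 5.08 with IFN gamma and by 2.15, 3.41, 4.09 and 1.17 with IFN alpha, at 0-30, 0-60, 30-60 and 150-180 min (SE 0.19 each). All 8 fibroblast markers were tested, with means of 8.97 (Thy1) to 13.2 (Vim). Macrophage, epithelial and endothelial lists had 1 of 8, 0 of 6 and 0 of 6 genes tested, with means of 2.36 (Ptprc) to 6.17 (Cd14), 1.96 (Cldn4) to 3.20 (Epcam) and 2.02 (Kdr) to 2.56 (Tek). The adipocyte and muscle list had 2 of 8, at 2.14 (Adipoq) to 7.58 (Lpl).

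**Figure D1:**
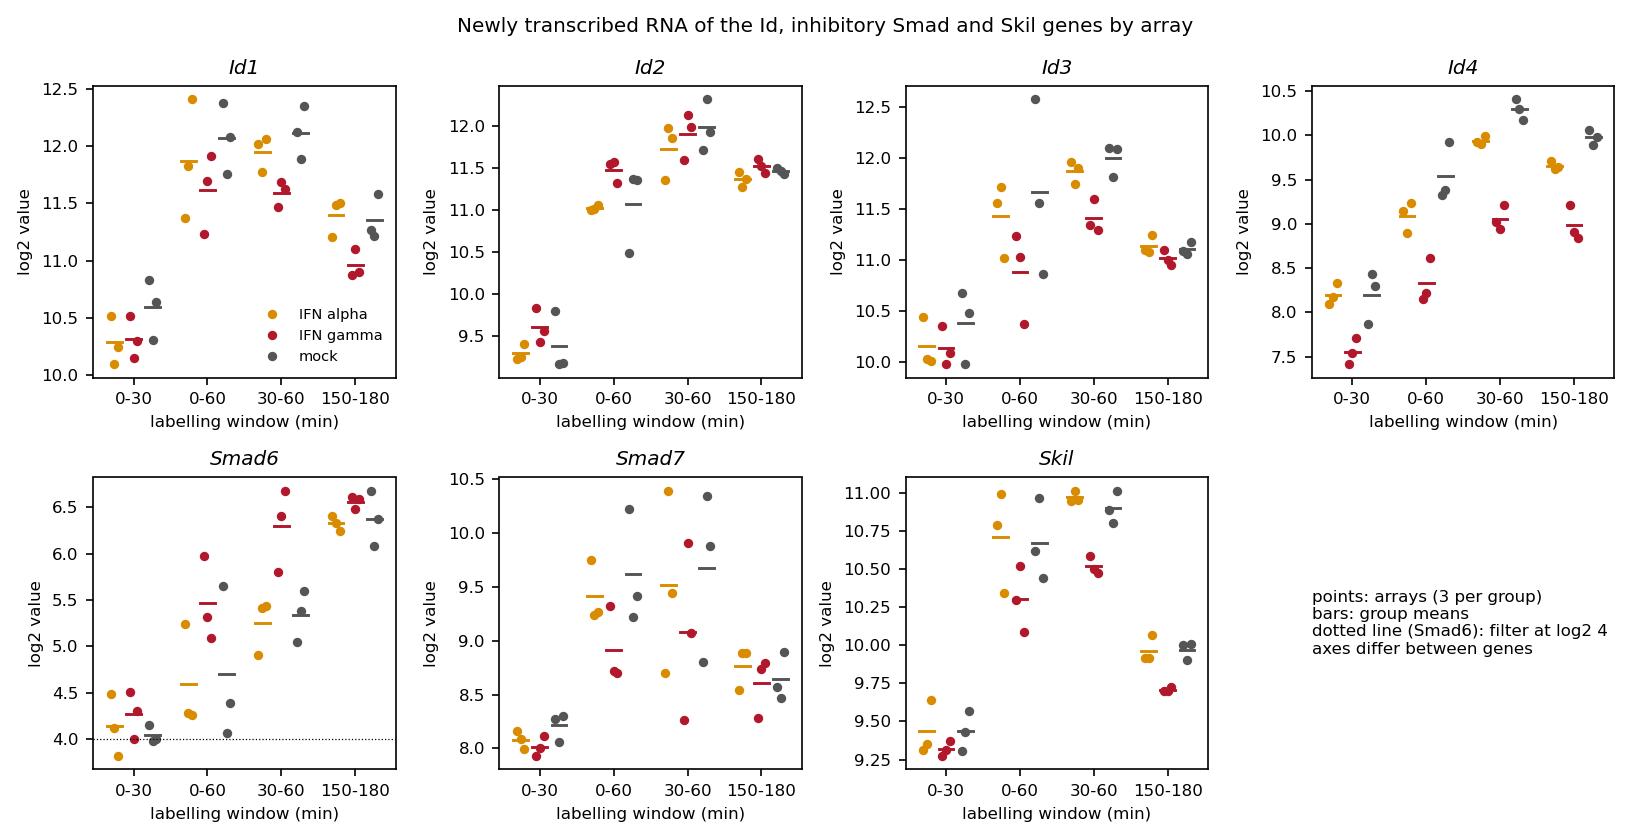
Log2 value of each array (points) and the group mean (bars) for Id1, Id2, Id3, Id4, Smad6, Smad7 and Skil, by labelling window in min, with IFN alpha left, IFN gamma in the middle and mock right; axes differ between genes. Id4 under IFN gamma lies below mock in every window (9.02, 8.94 and 9.21 against 10.41, 10.29 and 10.18 at 30-60 min), and all 7 genes are higher at 30-60 than at 0-30 min in mock.

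Id4 was the 1 gene of the 7 called lower with IFN gamma in the fit over all arrays, which treated them as unpaired. Other genes joined it at 30-60 and 150-180 min when the arrays of the window alone were fitted. The new RNA of Id4 was below mock in each of the 4 windows, and by 30-60 min it was 2.35-fold lower. At 0-30 min the arrays read 7.41, 7.54 and 7.71 with IFN gamma, against 7.87, 8.44 and 8.30 in mock. At 0-60 min they read 8.15, 8.22 and 8.61 with IFN gamma, against 9.33, 9.38 and 9.93 in mock. Every IFN gamma array was below every mock array in both windows. At 30-60 min the values were 9.02, 8.94 and 9.21 with IFN gamma and 10.41, 10.29 and 10.18 in mock. At 150-180 min they were 9.21, 8.91 and 8.84 with IFN gamma and 10.06, 9.89 and 9.99 in mock. Again no IFN gamma array reached the mock arrays. In a limma fit over all genes, with Benjamini-Hochberg adjustment and calls at an adjusted p under 0.05, Id4 fell by 0.65 ± 0.16 (SE) at 0-30 min (adjusted p = 0.0346). It fell by 1.22 ± 0.16 at 0-60 min (adjusted p = 9.45e-07) and by 1.23 ± 0.16 at 30-60 min (adjusted p = 5.38e-07). At 150-180 min it fell by 0.99 ± 0.16 (adjusted p = 2.03e-05). Of the 7 genes Id4 was the 1 called lower in each window, where 0.0419%, 2.9%, 2.06% and 1.54% of all genes were lower with IFN gamma at 0-30, 0-60, 30-60 and 150-180 min. The first of these calls was lost when 1 of 4 arrays was left out (mock 2 or 3, IFN gamma 1 or 2), where the difference lay between -0.81 and -0.53 over all 6 omissions. The other 3 calls held under each of the 9 alternatives and each left-out array. In bulk RNA a lower value cannot tell fewer transcribing cells from less new RNA per cell.

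The other probe sets of Id4 moved the same way, with more spread at 0-60 min. Probe set 1423259_at read 8.01, 8.61 and 8.61 with IFN gamma at 30-60 min, against 9.88, 9.93 and 10.26 in mock. Probe set 1423260_at read 6.0, 6.92 and 6.70 with IFN gamma, against 7.33, 8.05 and 7.74 in mock. In both the groups were apart in this window, and in the fit over 21874 probe sets they fell by 1.61 ± 0.30 (adjusted p = 0.000382) and 1.17 ± 0.23 (adjusted p = 0.00122). At 0-60 min 1423260_at fell by 1.43 ± 0.23 (adjusted p = 0.000113). There 1423259_at had a difference of -0.59 ± 0.30 (adjusted p = 0.286), with IFN gamma arrays at 7.78, 8.26 and 8.59 within the span of mock arrays at 7.73, 8.92 and 9.72. The low mock array is array 1, and without it the differences were -1.12 ± 0.25 (adjusted p = 0.00534) for 1423259_at and -1.17 ± 0.24 (adjusted p = 0.00208) for 1423260_at, both called lower. At 150-180 min 1423260_at fell by 0.89 ± 0.23 (adjusted p = 0.0193), and 1423259_at, at -0.91 ± 0.30, had an adjusted p of 0.0822 although its groups did not overlap. At 0-30 min both lay below mock in every array, at -0.75 ± 0.30 and -0.67 ± 0.23, and neither was called. With IFN gamma 0.0274%, 1.44%, 1.37% and 0.882% of the probe sets were lower in the 4 windows.

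**Figure D2:**
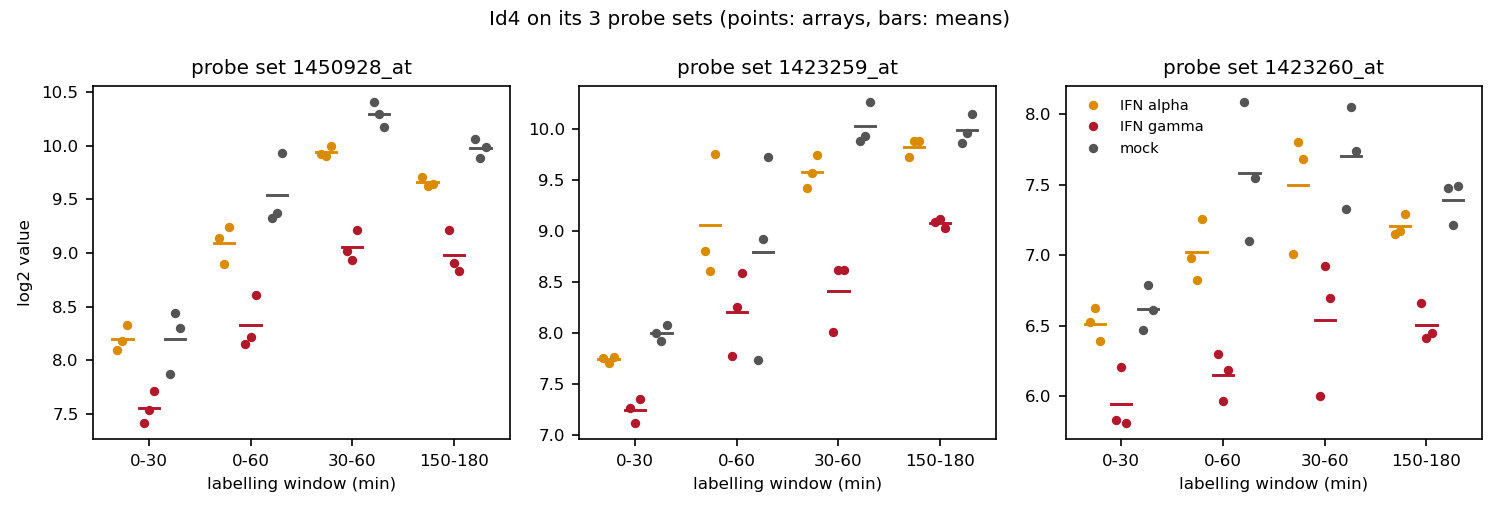
Log2 value of each array (points) and the group mean (bars) for the 3 probe sets of Id4, by labelling window in min, with IFN alpha left, IFN gamma in the middle and mock right in each window. IFN gamma arrays lie below mock on all 3 at 30-60 min, while at 0-60 min the mock arrays of 1423259_at spread between 7.73 and 9.72.

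Id1 and Id3 lay below mock with IFN gamma by smaller differences than Id4, and whether they were called depended on how the arrays were fitted. At 30-60 min Id1 read 11.47, 11.69 and 11.63 with IFN gamma and 12.12, 11.89 and 12.35 in mock. Id3 read 11.34, 11.60 and 11.29 with IFN gamma and 12.09, 11.81 and 12.08 in mock. For both, every IFN gamma array was below every mock array. The differences were -0.52 ± 0.20 for Id1 (adjusted p = 0.149) and -0.59 ± 0.25 for Id3 (adjusted p = 0.247). Neither passed in the unpaired fit over all arrays. Same-numbered arrays deviated together in this window, and with the array number as a block Id1 (blocked SE 0.16, adjusted p = 0.0343) and Id3 (blocked SE 0.15, adjusted p = 0.0113) were called lower. The differences by array number were -0.66, -0.20 and -0.72 for Id1 and -0.75, -0.21 and -0.79 for Id3, below 0 in 3 of 3 pairs.

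At 0-60 min Id1 read 11.23, 11.70 and 11.91 with IFN gamma and 12.37, 11.76 and 12.08 in mock. Id3 read 11.23, 11.03 and 10.37 with IFN gamma and 12.57, 11.55 and 10.86 in mock. Groups overlapped in both, and the highest of the 6 values of each gene was that of mock array 1, which stands apart. Id1 differed by -0.46 ± 0.20 (adjusted p = 0.17) and Id3 by -0.78 ± 0.25 (adjusted p = 0.0575). With the block both were called lower (for Id1 with an adjusted p of 0.05 that lies just under the threshold, for Id3 with 0.000873). Without mock array 1 the unblocked differences were -0.30 for Id1 and -0.33 for Id3 (adjusted p = 0.585 and 0.546). With the block and without that array the call of Id1 was lost (-0.08, adjusted p = 0.671) and Id3 was called lower (-0.45, adjusted p = 0.00489). At 150-180 min Id1 lay below mock in every array, at 10.87, 11.10 and 10.90 with IFN gamma against 11.27, 11.21 and 11.58 in mock, with a difference of -0.39 ± 0.20 (adjusted p = 0.38). Id3 differed by -0.09 ± 0.25 in that window, with overlapping arrays. At 0-30 min the differences were -0.27 ± 0.20 for Id1 and -0.24 ± 0.25 for Id3, and arrays overlapped.

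Id2, the family member with the largest change over time in mock, showed no call with IFN gamma in any window. At 30-60 min it read 11.59, 12.13 and 11.99 with IFN gamma and 11.71, 12.32 and 11.92 in mock, a difference of -0.08 ± 0.19 (adjusted p = 0.947). At 0-60 min it read 11.54, 11.57 and 11.32 with IFN gamma and 10.49, 11.37 and 11.36 in mock. The groups overlapped, and the difference of 0.41 ± 0.19 (adjusted p = 0.211) became 0.11 without mock array 1. On its other probe sets, 1422537_a_at and 1453596_at, the difference in that window was -0.07 ± 0.31 and -0.14 ± 0.35. Without mock array 1 it was 0.46 ± 0.27 and 0.08 ± 0.38, and no probe set of Id2 was called. On the main probe set the differences at 0-30 and 150-180 min were 0.23 ± 0.19 and 0.06 ± 0.19. At 0-30 min 1422537_a_at differed by 0.48 ± 0.31, with every IFN gamma array (lowest 7.28) above every mock array (highest 7.27). At 30-60 min 1453596_at differed by -0.50 ± 0.35, with every IFN gamma array (highest 6.24) below every mock array (lowest 6.26). At 0-30 min 1453596_at (0.24 ± 0.35) and at 30-60 min 1422537_a_at (-0.30 ± 0.31) overlapped mock. At 150-180 min both overlapped mock. None of these was called.

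Smad6 went the other way from Id4 in the window where the family moved most. At 30-60 min it read 5.80, 6.41 and 6.67 with IFN gamma, against 5.05, 5.38 and 5.60 in mock. Every IFN gamma array was above every mock array, with a difference of 0.95 ± 0.30, or 1.94-fold, that missed the threshold (adjusted p = 0.062). With the block it was called higher (blocked SE 0.16, adjusted p = 0.000119), and the pairs differed by 0.75, 1.03 and 1.07. At 0-60 min Smad6 read 5.98, 5.32 and 5.09 with IFN gamma and 5.65, 4.07 and 4.39 in mock. The groups overlapped through mock array 1 alone. The difference was 0.76 ± 0.30 (adjusted p = 0.132), called higher with the block (adjusted p = 0.00152), and it was 1.23 without mock array 1 (adjusted p = 0.00477). At 150-180 min it read 6.61, 6.48 and 6.59 with IFN gamma and 6.68, 6.08 and 6.37 in mock, which overlapped (0.18 ± 0.30). At 0-30 min it differed by 0.22 ± 0.30, from values of 4.00 to 4.51 with IFN gamma and 3.98 to 4.15 in mock, near the filter at log2 4.

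Smad7, at chr18:75367365-75395935, lay below mock with IFN gamma in each pair of same-numbered arrays at 0-60 and 30-60 min, while arrays of a group differed widely. At 30-60 min it read 8.27, 9.90 and 9.07 with IFN gamma and 8.80, 10.34 and 9.87 in mock. The groups overlapped, array 1 was low and array 2 high in both, and the pairs differed by -0.53, -0.44 and -0.80. The difference of -0.59 ± 0.35 had an adjusted p of 0.519 unpaired and 0.000636 with the block (blocked SE 0.11). At 0-60 min Smad7 read 9.32, 8.72 and 8.70 with IFN gamma and 10.22, 9.22 and 9.42 in mock, and the pairs differed by -0.90, -0.50 and -0.72. The difference of -0.71 ± 0.35 had an adjusted p of 0.23 unpaired and 8.9e-05 with the block, and it was -0.41 without mock array 1. Its other probe set, 1443771_x_at, differed by -0.38 ± 0.17 at 30-60 min, with IFN gamma at 9.12, 8.76 and 8.75 and mock at 9.50, 9.14 and 9.14. There the highest IFN gamma array (9.1222) lay just under the lowest mock array (9.1365). At 0-60 min 1443771_x_at differed by -0.01 ± 0.17, or -0.27 ± 0.16 without mock array 1. This probe set was called in neither window. At 0-30 and 150-180 min Smad7 differed by -0.20 ± 0.35 and -0.04 ± 0.35, and at 150-180 min array 2 was above its mock partner by 0.27.

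Skil, the SnoN gene, was lower with IFN gamma by a small and even amount. At 30-60 min it read 10.58, 10.50 and 10.48 with IFN gamma, against 10.89, 10.80 and 11.01 in mock. At 150-180 min it read 9.70, 9.70 and 9.73 with IFN gamma, against 10.00, 9.90 and 10.01 in mock. Every IFN gamma array was below every mock array in both windows. The difference at 30-60 min was -0.38 ± 0.14 (adjusted p = 0.118), called lower with the block (blocked SE 0.08, adjusted p = 0.000991). At 0-60 min it was -0.37 ± 0.14 (adjusted p = 0.096), called lower with the block (adjusted p = 0.00118), with pairs at -0.32, -0.45 and -0.35. At 150-180 min it was -0.26 ± 0.14 (adjusted p = 0.4; 0.0233 with the block, where 5.53% of genes were lower, although the numbers were not taken to pair arrays in that window), and at 0-30 min -0.12 ± 0.14. Probe set 1422054_a_at differed by -0.79 ± 0.40 at 30-60 min, with overlapping arrays.

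With the block, 5 of the 7 genes were lower (Id1, Id3, Id4, Smad7 and Skil) and 1 higher (Smad6) at both 0-60 and 30-60 min. The block also called more of all genes: 11.8% lower and 8.59% higher at 0-60 min, and 6.41% lower and 5.75% higher at 30-60 min. Without mock array 1 the block called 4 lower (all but Id1) and Smad6 higher at 0-60 min, where 8.49% of genes were lower and 6.36% higher. The median of the 7 differences from mock with IFN gamma was -0.20, -0.46, -0.52 and -0.09 at 0-30, 0-60, 30-60 and 150-180 min, beside -0.02, -0.05, -0.05 and -0.10 over all genes. At 0-60 min it was -0.33 without mock array 1.

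**Figure D3:**
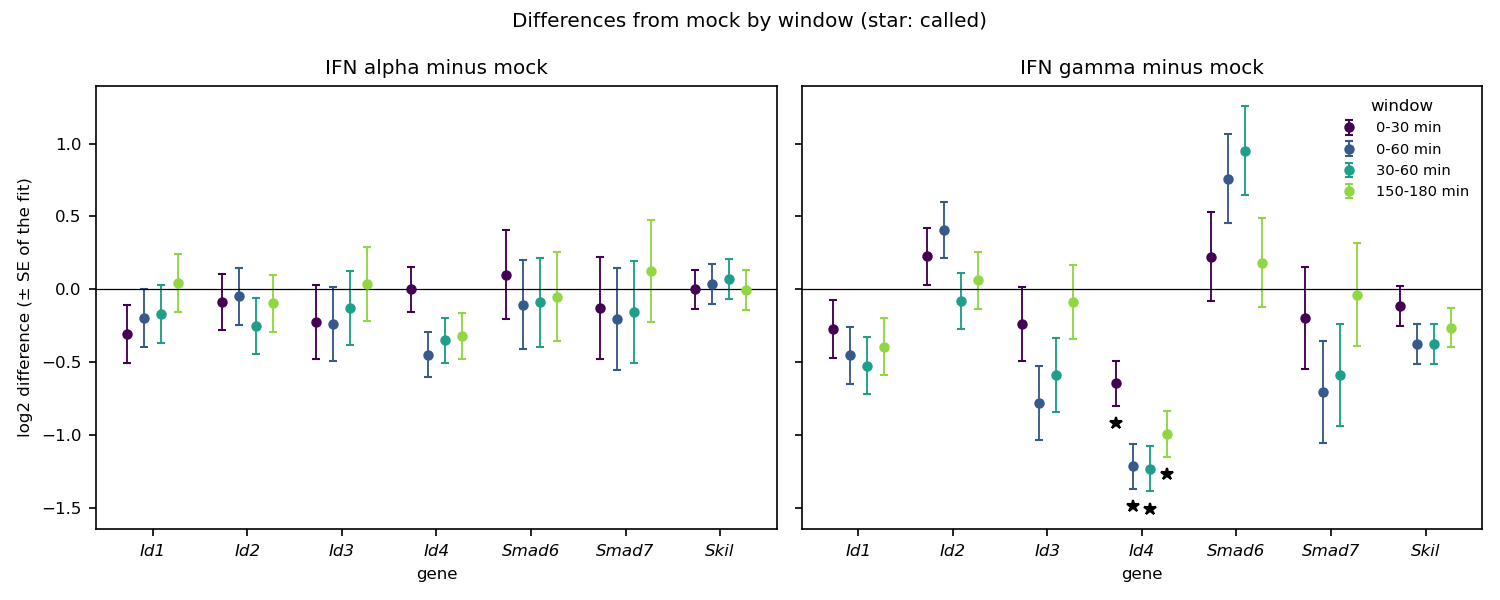
Log2 difference from mock (± SE of the fit, 3 arrays a group) of each gene in the windows 0-30, 0-60, 30-60 and 150-180 min, with IFN alpha on the left and IFN gamma on the right; a star marks a call in the unpaired fit. Id4 under IFN gamma carries the 4 stars, at -0.65, -1.22, -1.23 and -0.99, and Smad6 lies above 0 at 0.76 and 0.95 in 0-60 and 30-60 min.

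**Figure D4:**
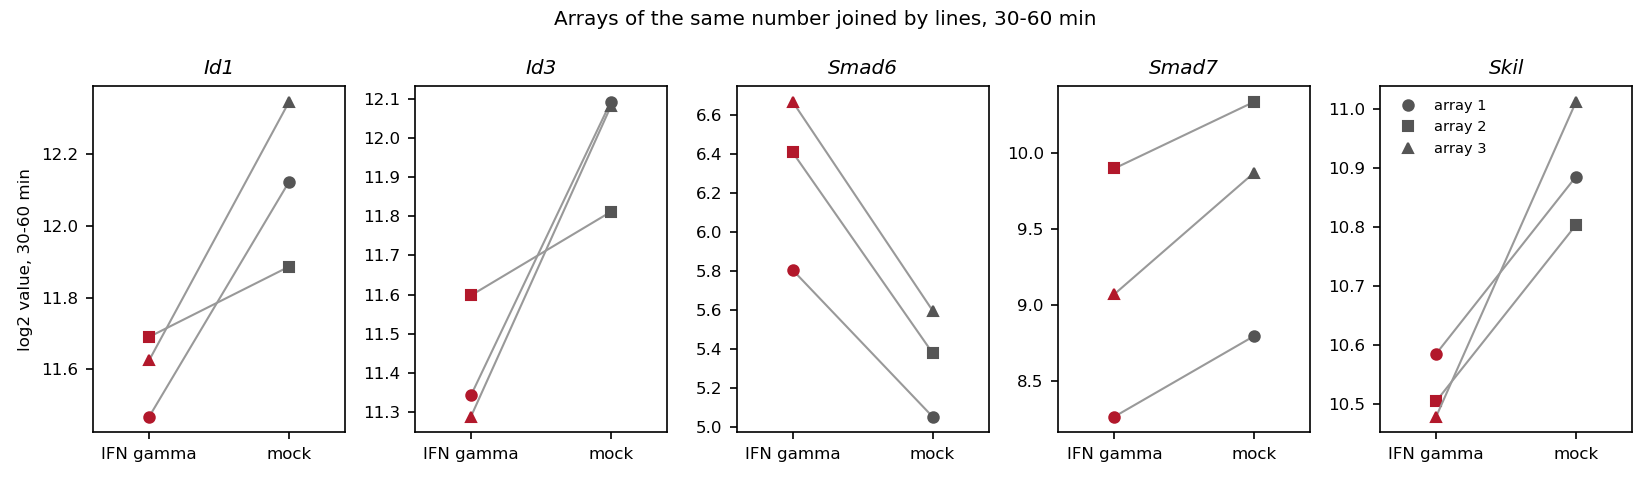
Log2 value at 30-60 min of Id1, Id3, Smad6, Smad7 and Skil, with IFN gamma on the left and mock on the right, and arrays of the same number joined by a line. All 3 lines run the same way for each gene, and for Smad7 the arrays differ more (8.27 to 9.90 with IFN gamma) than the ends of any line.

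IFN alpha changed none of the 7 genes past the threshold in any window. Over all genes 0.377%, 1.98%, 2.59% and 2.69% were called with IFN alpha at 0-30, 0-60, 30-60 and 150-180 min, and 0, 1, 1 and 1 of the 7 had an unadjusted p under 0.05 by limma, in each case Id4, below mock. Id4 read 9.14, 8.90 and 9.24 with IFN alpha at 0-60 min, against 9.33, 9.38 and 9.93 in mock. At 30-60 min it read 9.92, 9.90 and 10.00 with IFN alpha, against 10.41, 10.29 and 10.18 in mock. At 150-180 min it read 9.70, 9.62 and 9.64 with IFN alpha, against 10.06, 9.89 and 9.99 in mock. In these 3 windows each IFN alpha array was below each mock array, by differences of -0.45 ± 0.16, -0.35 ± 0.16 and -0.32 ± 0.16 (adjusted p = 0.188, 0.437 and 0.61). At 0-60 min the block called Id4 lower (adjusted p = 0.0123, where 4.81% of genes were called). With the block and without mock array 1 Id4 was called lower too (-0.53, adjusted p = 0.00223), where 2.84% of genes were higher and 0.346% lower. In the limma fit without that array and without the block it was at -0.56 ± 0.16 and not called (adjusted p = 0.0867). On 1423259_at the difference was 0.26 ± 0.30, and -0.27 ± 0.25 without mock array 1. On 1423260_at it was -0.56, and -0.31 ± 0.24 without that array. At 0-30 min Id4 read 8.09, 8.18 and 8.33 with IFN alpha, within the mock range, and differed by -0.0014 ± 0.16. On 1423259_at every IFN alpha array was below every mock array at 0-30 min (-0.26 ± 0.30) and at 30-60 min (-0.45 ± 0.30). On 1423260_at the arrays overlapped mock in both windows (-0.11 ± 0.23 and -0.21 ± 0.23). At 150-180 min both probe sets overlapped mock (-0.16 ± 0.30 and -0.19 ± 0.23). Neither was called in these 3 windows.

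On the main probe sets of the other 6 genes the differences with IFN alpha lay between -0.31 and 0.13 in the 4 windows when all arrays were used. The outer values were -0.31 ± 0.20 for Id1 at 0-30 min and 0.13 ± 0.35 for Smad7 at 150-180 min. Skil kept within 0.07 of mock on its main probe set. It read 10.95, 11.02 and 10.96 with IFN alpha at 30-60 min against 10.89, 10.80 and 11.01 in mock. Smad6 at 30-60 min read 4.91, 5.41 and 5.43 with IFN alpha against 5.05, 5.38 and 5.60 in mock, which overlapped. At 0-60 min they turned on mock array 1: without it Smad6 was at 0.37 ± 0.28, Id3 at 0.22 ± 0.22, Smad7 at 0.10 ± 0.37, Id1 at -0.05 ± 0.21 and Id2 at -0.34 ± 0.18, and none was called. With all arrays Smad6, Id3 and Smad7 were at -0.11, -0.24 and -0.20 in that window. Other probe sets went past that range, and none was called. Id2 at 30-60 min averaged 5.66 with IFN alpha and 6.44 in mock on 1453596_at, without overlap, and 9.09 and 9.51 on 1422537_a_at. At 0-60 min they were at -0.44 and -0.41, and Skil was at 0.36 on 1422054_a_at. Without mock array 1 these 0-60 min differences were -0.21, 0.11 and -0.05. The median of the 7 differences with IFN alpha was -0.09, -0.20, -0.16 and -0.01, beside -0.03, 0.03, -0.04 and -0.10 over all genes, and at 0-60 min it was 0.0047 without mock array 1. A p that misses the threshold does not show that a gene was unaffected.

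The interferons were compared with each other at the same units and windows, and Id4 was higher with IFN alpha than with IFN gamma in each. The difference was 0.64 ± 0.16 at 0-30 min (adjusted p = 0.0367), 0.77 ± 0.16 at 0-60 min (adjusted p = 0.00162), 0.88 ± 0.16 at 30-60 min (adjusted p = 0.000146) and 0.67 ± 0.16 at 150-180 min (adjusted p = 0.00482). Over all genes 0.712%, 4.01%, 5.7% and 4.69% differed between the interferons in these windows. At 30-60 min Id4 read 9.92, 9.90 and 10.00 with IFN alpha and 9.02, 8.94 and 9.21 with IFN gamma, well apart. That call held under the 9 alternatives and 6 left-out arrays, and both other probe sets were called as well. Of these 2 probe sets 0, 1 and 0 were called at 0-30, 0-60 and 150-180 min. The call at 0-30 min was lost without any 1 of 5 of the 6 arrays (all but IFN gamma 3). Also at 30-60 min Skil was higher with IFN alpha (0.45 ± 0.14, adjusted p = 0.0444) and Smad6 lower (-1.04 ± 0.30, adjusted p = 0.0342). Skil read 10.95, 11.02 and 10.96 with IFN alpha and 10.58, 10.50 and 10.48 with IFN gamma. Smad6 read 4.91, 5.41 and 5.43 with IFN alpha and 5.80, 6.41 and 6.67 with IFN gamma. Neither gene's groups overlapped, yet the Skil call was lost when any of the 6 arrays was left out, and the Smad6 call when any but IFN gamma array 1 was. With the block at 30-60 min, where 10.3% of genes were called, both stood (adjusted p = 0.000139 for Skil and 3.78e-05 for Smad6) and Smad7 was higher with IFN alpha by 0.43 (adjusted p = 0.0127). At 0-60 min the block, with 9.55% of genes called, added Id3 (0.55), Smad7 (0.51) and Skil (0.41) as higher with IFN alpha and Id2 (-0.46) and Smad6 (-0.87) as lower.

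Whether the response to an interferon differed between windows was tested as a difference of differences. None of the 7 genes passed for either interferon, against 1.31% of all genes between 30-60 and 0-30 min and 0.471% between 150-180 and 30-60 min with IFN alpha, and 1.5% and 1.91% with IFN gamma. Over these 4 tests 1 of the 7 had an unadjusted p under 0.05, Id4, whose response to IFN gamma was lower at 30-60 than at 0-30 min by 0.59 ± 0.22 (adjusted p = 0.341). With the block, where 3.61% of genes were called, it was called lower (adjusted p = 0.0236). For Smad6 the response to IFN gamma was 0.73 ± 0.43 higher at 30-60 than at 0-30 min (adjusted p = 0.969). Between 150-180 and 30-60 min it differed by -0.77 ± 0.43 (adjusted p = 0.677). The block, with 5.71% of genes called, gave an adjusted p of 0.0436 there, and for Smad7, whose response was higher by 0.55, it gave 0.0417. Array numbers were not taken to pair arrays at 150-180 min.

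Mock cells, which received medium and no interferon, showed the largest changes of the family: all 7 genes had higher values at 30-60 than at 0-30 min, relative to the other labelled RNA. The bioC hybridisation controls, spiked into every sample, had a higher mock mean too, at 9.36 against 7.53. Id2 read 9.80, 9.16 and 9.18 at 0-30 min, 11.71, 12.32 and 11.92 at 30-60 min and 11.51, 11.47 and 11.43 at 150-180 min. Id4 read 7.87, 8.44 and 8.30 at 0-30 min, then 10.41, 10.29 and 10.18, then 10.06, 9.89 and 9.99. Id1 read 10.83, 10.31 and 10.64 at 0-30 min, then 12.12, 11.89 and 12.35, then 11.27, 11.21 and 11.58. In each the middle window was highest and lay clear of the first in every array. Id3 read 10.68, 9.98 and 10.48 at 0-30 min, then 12.09, 11.81 and 12.08, then 11.08, 11.06 and 11.17. Skil read 9.31, 9.43 and 9.57 at 0-30 min, then 10.89, 10.80 and 11.01, then 10.00, 9.90 and 10.01. Smad7 read 8.28, 8.06 and 8.30 at 0-30 min, then 8.80, 10.34 and 9.87, then 8.57, 8.46 and 8.90. These had the same shape, with a wide spread of the Smad7 arrays in the middle window. Smad6 alone went on: it read 4.15, 3.98 and 4.00 at 0-30 min, 5.05, 5.38 and 5.60 at 30-60 min and 6.68, 6.08 and 6.37 at 150-180 min.

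From limma, Id2 was higher at 30-60 than at 0-30 min by 2.60 ± 0.19, or 6.08-fold (adjusted p = 5.51e-12), and Id4 by 2.09 ± 0.16, or 4.26-fold (adjusted p = 5.47e-12). Id3 was higher by 1.62 ± 0.25 (adjusted p = 3.35e-06), Id1 by 1.53 ± 0.20 (adjusted p = 1.72e-07) and Skil by 1.46 ± 0.14 (adjusted p = 4.57e-10). Smad7 was higher by 1.46 ± 0.35 (adjusted p = 0.000699) and Smad6 by 1.30 ± 0.30 (adjusted p = 0.000544). Every array at 30-60 min was above every array at 0-30 min for all 7. Among all genes 9.05% were higher and 51.8% lower in this comparison, with a median of -0.52, against a median of 1.53 for the 7. The probe set fit called 12 of the 13 higher, where 20.7% of probe sets were; the exception was 1422054_a_at of Skil, at 0.81 ± 0.40 (adjusted p = 0.0862). These calls held under all 8 alternatives and all 6 left-out arrays. GCRMA scales arrays to a like distribution, so a difference between windows is relative to the other labelled RNA.

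At 150-180 min 5 of the 7 genes were lower than at 30-60 min. The differences were -0.93 ± 0.14 for Skil (adjusted p = 8.58e-07), -0.89 ± 0.25 for Id3 (adjusted p = 0.00307) and -0.76 ± 0.20 for Id1 (adjusted p = 0.00133). They were -0.52 ± 0.19 for Id2 (adjusted p = 0.0207) and -1.03 ± 0.35 for Smad7 (adjusted p = 0.0117). Id4 lay below in every array but missed the threshold (-0.31 ± 0.16, adjusted p = 0.0779). Smad6 was higher by 1.03 ± 0.30 (adjusted p = 0.00393), with no overlap. Among all genes 10.7% were lower and 53.4% higher at 150-180 min, with a median of 0.55, beside -0.76 for the 7. The Smad7 groups overlapped, and without mock array 2 of 30-60 min its call was lost (-0.69, adjusted p = 0.11), as was that of Id2 (-0.35, adjusted p = 0.149). The Id2 call was also lost without mock array 3 of 150-180 min (-0.50, adjusted p = 0.0504).

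At 0-60 min, which overlaps the earlier windows and used less 4sU for longer, mock was above 0-30 min by 1.69 ± 0.19 for Id2, 1.48 ± 0.20 for Id1 and 1.34 ± 0.16 for Id4. It was above by 1.40 ± 0.35 for Smad7, 1.28 ± 0.25 for Id3 and 1.24 ± 0.14 for Skil. These 6 were called, where 12.1% of all genes were higher, and Smad6 was not (0.66 ± 0.30, adjusted p = 0.091). Without mock array 1 of 0-60 min the 6 differences were 1.98, 1.32, 1.45, 1.10, 0.83 and 1.27 and stayed called, and Smad6 was at 0.18. No arrays from before the medium change were analysed here, so time, medium and 4sU exposure cannot be told apart in mock cells. The mock mean of bioC over its 4 probe sets was 7.53 at 0-30 min (7.41 to 7.59 over arrays), 9.36 at 30-60 min (7.97 to 10.6) and 7.13 at 150-180 min (7.06 to 7.20), with 9.25 at 0-60 min. The part of these controls in the mock differences was not tested.

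**Figure D5:**
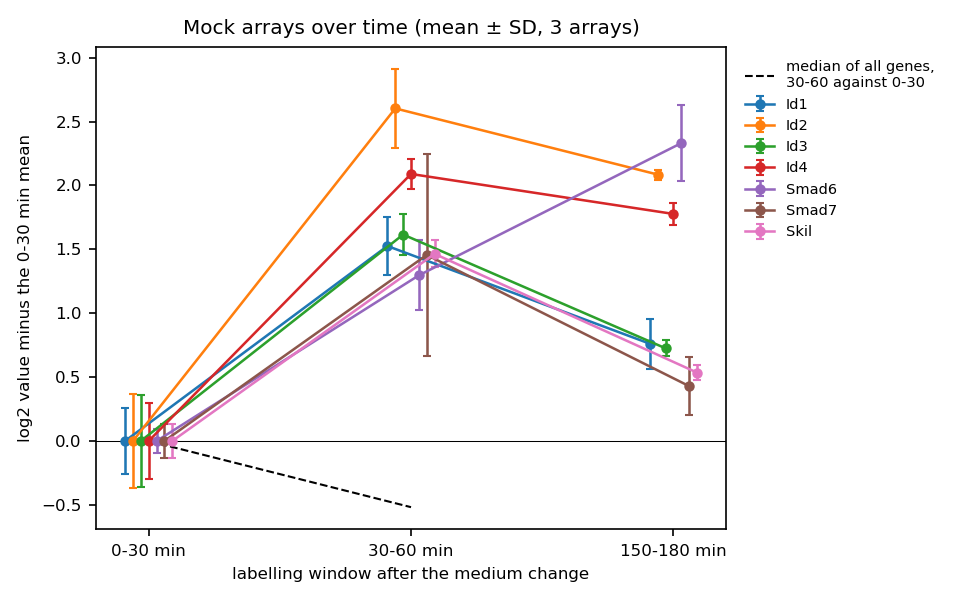
Mock log2 value minus the 0-30 min mean (mean ± SD, 3 arrays) for each of the 7 genes at 0-30, 30-60 and 150-180 min, with the median of all genes from 0-30 to 30-60 min as a dashed line. All 7 are above their start at 30-60 min while the median of all genes is at -0.52, and only Smad6 is higher again at 150-180 min.

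Over the 12 group means the 7 genes fell into a close set and a looser one. Id1, Id3, Smad7 and Skil had Pearson correlations of 0.94 to 0.978 with each other. Id2 had 0.755 to 0.85 with those 4, and Id4 had 0.718 to 0.875. Smad6 stood apart, with 0.214 with Skil, 0.217 with Smad7 and 0.78 with Id2. Group means share arrays of a window and the windows themselves, so these describe the 12 points only. Among 6654 other genes whose group means spanned at least 1 log2 unit, the nearest to Skil was Nrn1 (r = 0.993), a neuritin, which was also nearest to Smad7 (0.984) and among the 3 nearest to Id1 (0.971) and Id3 (0.956). The nearest to Id1 was Snai1 (0.983), a repressor of epithelial genes, and to Id3 it was Smad7 (0.961). Id2 had Uap1 (0.948), an enzyme of UDP-GlcNAc synthesis, Trabd2b (0.933) and Atxn7 (0.922). Id4 had Nr4a2 (0.955), an orphan nuclear receptor, Dlk1 (0.929) and Tubb2a (0.925). Smad6 had Snap25 (0.898), Prrx2 (0.876) and Dse (0.87).

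The rest of the BMP and TGF-beta pathway was followed in 51 tested genes of 7 lists by role. With IFN gamma, 1, 3, 4 and 1 of the 51 were higher and 0, 7, 5 and 6 lower at 0-30, 0-60, 30-60 and 150-180 min. Over all genes 0.754%, 3.83%, 3.82% and 4.37% were higher and 0.0419%, 2.9%, 2.06% and 1.54% lower in those windows. Without mock array 1 the counts at 0-60 min were 4 higher and 4 lower, where 3.19% of genes were higher and 1.85% lower. The calls lost were those of Inhba, Tagln and Tcf4 (-0.34, -0.53 and -0.42), and Fn1, fibronectin, was added as higher (0.32). Follistatin (Fst), a secreted protein that binds activins and some BMPs, had the largest change of the pathway genes. It averaged 9.63 ± 0.32 with IFN gamma and 8.03 ± 0.22 in mock at 0-30 min, and 11.4 ± 0.08 with IFN gamma and 7.42 ± 0.08 in mock at 150-180 min (SD, n = 3 each). It was higher with IFN gamma by 1.60 ± 0.18, 3.16 ± 0.18, 3.39 ± 0.18 and 3.98 ± 0.18 in the 4 windows (adjusted p = 3.97e-07 at 0-30 min and 1.22e-17 at 150-180 min). Fst was also higher with IFN alpha, by 1.05 ± 0.18 at 0-60 min and 0.81 ± 0.18 at 30-60 min, and no other gene of the 51 was called above mock with IFN alpha in the 4 windows. Without mock array 1 Fst at 0-60 min was at 2.84 with IFN gamma and 0.73 with IFN alpha, both called. The other 3 antagonists tested were not called with either interferon.

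Of 5 ligand genes tested, Gdf5 and Inhba were called lower with IFN gamma at 0-60 min (-0.79 ± 0.17 and -0.53 ± 0.16) and Tgfb1 at 30-60 min (-1.34 ± 0.39, adjusted p = 0.0327). Without mock array 1 of 0-60 min Gdf5 was at -0.62 and stayed called, and the Inhba call was lost (-0.34). Gdf5 averaged 3.06 with IFN gamma and 3.85 in mock at 0-60 min, both under the filter value of log2 4 and close to the array medians, so its difference lies between low values. At 150-180 min it averaged 3.61 with IFN gamma and 4.38 in mock, and Tgfb1 at 30-60 min 4.33 with IFN gamma and 5.67 in mock. At 150-180 min Tgfb2, Gdf5 and Tgfb3 fell, by 0.86 ± 0.15, 0.76 ± 0.17 and 0.65 ± 0.16, and Tgfb2 also fell with IFN alpha, by 0.64 ± 0.15. Of 9 receptors, Acvr1b, an activin type I receptor, was higher with IFN gamma at 0-60 and 30-60 min, by 0.51 ± 0.15 and 0.52 ± 0.15. None of the 5 signalling Smads tested was called against mock with either interferon, and their median difference with IFN gamma lay between -0.18 and 0.10. Of 10 intracellular inhibitors besides the inhibitory Smads and Skil, the Smad corepressor genes Tgif2 (-0.74 ± 0.16 at 0-60 min, -0.70 ± 0.16 at 30-60 min) and Tgif1 (-0.89 ± 0.26 at 30-60 min) fell with IFN gamma. Tgif2 at 0-60 min was at -0.56 without mock array 1 and stayed called.

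Of 13 other target genes, Snai2, a repressor of epithelial genes, fell with IFN gamma by 0.96 ± 0.15, 0.67 ± 0.15 and 0.73 ± 0.15 at 0-60, 30-60 and 150-180 min. Tgfbi, a matrix protein, rose by 1.00 ± 0.23 and 1.29 ± 0.23 at 0-60 and 30-60 min (in mock it averaged 4.00 at 0-60 min, at the filter value), and Acta2, smooth muscle actin, by 0.91 ± 0.18 at 30-60 min. Tagln fell by 0.59 ± 0.18 at 0-60 min, a call lost without mock array 1 (-0.53), and Postn fell by 0.67 ± 0.16 at 150-180 min. Of 5 helix-loop-helix genes of the kind Id proteins bind, Twist2 fell by 1.09 ± 0.16, 1.04 ± 0.16 and 0.78 ± 0.16 at 0-60, 30-60 and 150-180 min. The E protein gene Tcf4 fell by 0.65 ± 0.17 at 0-60 min. Without mock array 1 Twist2 was at -0.87 in that window and stayed called, and the Tcf4 call was lost (-0.42). The median of the 51 with IFN gamma was 0.0085, -0.06, -0.13 and -0.08 in the 4 windows, close to that of all genes.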

How the data were processed

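Affymetrix mouse arrays measured newly transcribed RNA in 36 samples. The deposited values are log2 expression values per probe set. The submitters' processing notes name GCRMA, which the authors ran before deposit; its version is not given in the sources used here. They run between 1.34 and 14.44, with array medians of 3.13 to 3.27.

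Of 45101 probe sets, 64 controls were left out. The platform annotation gave 1 symbol to 34945, several to 932 and none to 9160; 34741 were matched by gene ID to RefSeq GRCm38.p6, which gave names, coordinates and promoters. Probe sets above log2 4 in at least 3 arrays were kept (21874), and the one with the highest mean per gene was used (9549 genes). limma 3.58.1 in R 4.3.3 fitted the 12 group means over all arrays (lmFit, eBayes with an intensity trend, two-sided, 24 residual degrees of freedom), with 19 contrasts, each adjusted by Benjamini-Hochberg over all genes. A second fit took every kept probe set. Another promoter motif was searched and is not reported here. The fit was tested on simulated data. Array signals rather than read depth limit precision, as does the number of arrays.

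Array numbers of the labels were checked as pairs through the correlation of deviations from group means. It was over 0.1 in 9 of 9 pairs at 0-30 (lowest 0.2045), 0-60 (0.1792) and 30-60 min (0.3166), and in 7 of 9 at 150-180 min (lowest -0.2864). The numbers were therefore taken to pair arrays in the first 3 windows, from the data and not from a stated design, and values with the number as a block stand beside results of these windows whose call it changes. No identical arrays were found.

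Named were all 7 genes, up to 3 called genes per pathway list and comparison with the largest change, the 3 most similar genes of each member, and Irf1 as a check. The 7 genes and the lists were chosen with earlier results of these data known. Alternatives were another filter or none, log2 after adding 16, quantile normalization, a common median, no trend, the arrays of the windows alone, mock 0-60 min array 1 or any compared array left out, other probe sets, and the block. Leaving out that array together with the block, with other probe sets and for the pathway lists was added after seeing the data.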

Additional observations from a re-analysis of the deposited data

How the results depend on the processing

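Counts are of the 7 genes called, under an alternative against the value reported. For IFN gamma against mock, 1 lower at 0-30 min became 0 with no filter, with no intensity trend and with the arrays of the window alone. With the replicate block 1 lower became 5 at 0-60 and 30-60 min and 2 at 150-180 min (Skil added), and 0 higher became 1 at 0-60 and 30-60 min. With the block and without mock 0-60 min array 1 (chosen after seeing the data) the counts at 0-60 min were 4 lower and 1 higher with IFN gamma and 1 lower with IFN alpha, and without that array 7 pathway genes lower with IFN gamma became 4. With the arrays of the window alone 1 lower became 3 at 30-60 and at 150-180 min. Smad6 also passed (0 to 1 higher) without mock 0-60 min array 1 at 0-60 and 30-60 min, and at 30-60 min after adding 16 and after quantile normalization. For IFN alpha against mock at 0-60 min the block made 0 lower 1. For IFN alpha against IFN gamma, 1 higher at 0-30 min became 0 with no filter, a common median, no trend, the window's arrays alone and all probe sets. At 0-60 min 1 higher became 4 with the block and 0 with the window's arrays, and 0 lower became 2 with the block and 1 without mock 0-60 min array 1. At 30-60 min 2 higher became 1 with no filter, no trend and all probe sets, and 1 lower became 0 with no filter, the window's arrays and all probe sets. At 150-180 min 1 higher became 2 with the block and with the window's arrays. Of the window differences of the IFN gamma response, the block made 0 lower 1 between 30-60 and 0-30 min, and 0 higher and 0 lower 1 each (Smad7 and Smad6) between 150-180 and 30-60 min. The cause was not tested.

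With each array left out in turn, counts ranged from 0 to 1 lower for IFN alpha at 0-60 min (1 without mock array 2), and for IFN gamma from 0 to 1 lower at 0-30 min, 1 to 3 lower (3 without mock array 2 or 3, 2 without IFN gamma array 1) and 0 to 1 higher (1 without mock array 1) at 0-60 min, and 0 to 1 higher at 30-60 min (1 without IFN gamma array 1). For IFN alpha against IFN gamma they ranged from 0 to 1 higher at 0-30 min, 1 to 2 higher and 0 to 1 lower at 0-60 min (2 without IFN alpha array 3 or IFN gamma array 2, 1 without IFN alpha array 1), and from 1 to 1 higher and 0 to 1 lower at 30-60 min. In mock, 3 to 5 genes were lower at 150-180 than at 30-60 min (3 without array 2 of 30-60 min). Among called differences and those with an unadjusted p under 0.05, directions turned on other probe sets alone: Id4 with IFN alpha at 0-60 min (0.26 on 1423259_at), and Id2 with IFN gamma at 0-60 min (-0.072 on 1422537_a_at and -0.14 on 1453596_at). Without mock 0-60 min array 1 none of these 3 turned (-0.27, 0.46 and 0.08), and for Id2 in mock at 0-60 against 0-30 min 1453596_at turned (-0.083). With no filter, 1879 genes against 864 were higher in mock at 30-60 than at 0-30 min, as more genes were tested. The block was not run for mock windows, since numbers pair arrays within a window; apart from the changes given here and in the report it ended or added no call of the 7 genes.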

Other observations

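The wider BMP and TGF-beta lists also moved in mock cells between the first windows, though not as a whole. At 30-60 against 0-30 min 12 of the 51 genes were higher and 15 lower, where 9.05% of all genes were higher and 51.8% lower. Their median was -0.0082, beside -0.52 over all genes. Among the other target genes 6 of 13 were higher, led by Snai1 (2.52 ± 0.50), Atoh8 (2.28 ± 0.45), a helix-loop-helix factor, and Klf10 (1.82 ± 0.11), an early TGF-beta response gene, while Cdkn1a (-1.10 ± 0.30), Tagln (-1.01 ± 0.18) and Acta2 (-0.75 ± 0.18) were lower. The ligand gene Tgfb1 was called higher (2.53 ± 0.39) and Gdf5 lower (-1.36 ± 0.17). Gdf5 averaged 2.91 at 30-60 min and Atoh8 2.62 at 0-30 min, both under the filter value of log2 4, as was Tgfb1 at 0-30 min, so these sizes rest on low values. Of the receptors Tgfbr1 was higher (1.01 ± 0.26) and Bmpr2 (-1.04 ± 0.21), Bmpr1a (-0.71 ± 0.19) and Tgfbr2 (-0.52 ± 0.12) lower. Smad1, a BMP receptor Smad, was higher (1.02 ± 0.17), whereas Smad3 (-0.80 ± 0.15), Smad5 (-0.63 ± 0.21) and Smad2 (-0.51 ± 0.22) were lower. None of the 5 helix-loop-helix partner genes of the Id proteins was called in this comparison.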
